A study of Mus musculus with 3 samples.

Results

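DNA damage response and repair genes were followed across the open chromatin of 3 mouse glioma libraries. The 36 genes were chosen by name from 11 repair and checkpoint pathways, out of 21887 protein-coding genes in the gene table. For each gene the counts of the library's own peaks within 1000 bp of either end of the gene were summed, so that a peak at the promoter or at the far end entered once. The assay was single-cell ATAC-seq: the Tn5 transposase cuts accessible DNA in isolated nuclei and each cut in a peak is counted.

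There was 1 library from tumors labelled as overexpressing PDGFB-NLS, 1 from tumors labelled as overexpressing PDGFB-WT and 1 labelled Control. PDGFB is a growth factor subunit that acts through PDGF receptors, and NLS is left as the labels give it. All 3 libraries carry the tissue label glioma, the design text names tumors made by piggyBac in utero electroporation, and whether Control is a tumor, like the strain, age, sex and number of animals pooled, is not given in the sources used here. With 1 library per group there was no replicate check and no test, and every interval covers counting error only.

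Cells repair DNA by several routes that share sensors and differ in the lesion they take. Breaks in both strands are detected by complexes that call the kinases ATM and ATR, which in turn activate CHEK2 and CHEK1 and hold the cell cycle. Broken ends are then joined directly by non-homologous end joining, or copied from a sister chromatid by homologous recombination with BRCA1, PALB2 and BRCA2. In glioma, loss of ATRX and silencing of MGMT are known features of human tumors, and PDGF-driven tumors in mice are widely used as a model of the disease.

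After barcodes under 200 counts were left out, PDGFB-NLS held 10996 barcodes and 31177621 counts, PDGFB-WT held 7441 barcodes and 7008951 counts, and Control held 2226 barcodes and 31588784 counts. The median count per barcode was 2767.5 in PDGFB-NLS, 821 in PDGFB-WT and 13054 in Control, so PDGFB-WT was the shallowest library by total and by barcode. Values are given as CPM, the count scaled to 1000000 counts in the 47450 merged regions called in all 3 libraries. Between 23 and 118 barcode sequences were shared by a pair of libraries. Called peaks numbered 127094 in PDGFB-NLS, 57616 in PDGFB-WT and 107627 in Control. In the sums over marker genes a marker with no called peak enters as 0, although its count is unknown, so each sum is also given over the markers with a peak in every library. Summed CPM at the gene ends of 12 oligodendrocyte precursor markers was 269 in PDGFB-NLS, 333 in PDGFB-WT and 199 in Control, with a peak at all 12 in each library. At 10 endothelial markers it was 95.6 in PDGFB-NLS, 45.3 in PDGFB-WT and 135 in Control, and over the 3 with a peak in every library 59.4 in PDGFB-NLS, 45.3 in PDGFB-WT and 81.3 in Control. A peak was called at 9 of the 10 in PDGFB-NLS, at 3 in PDGFB-WT and at 9 in Control, with Cldn5, Pecam1 and Cdh5 among those without one in PDGFB-WT. At 13 microglia or macrophage markers it was 299 in PDGFB-NLS, 218 in PDGFB-WT and 339 in Control, and over the 10 with a peak in every library 272 in PDGFB-NLS, 218 in PDGFB-WT and 305 in Control. At 12 oligodendrocyte markers it was 260 in PDGFB-NLS, 152 in PDGFB-WT and 280 in Control, and over 10 of them 234 in PDGFB-NLS, 152 in PDGFB-WT and 239 in Control. At 12 astrocyte markers it was 360 in PDGFB-NLS, 396 in PDGFB-WT and 323 in Control, and over 10 of them 354, 396 and 316 in that order. At 12 neuron markers it was 104 in PDGFB-NLS, 97.4 in PDGFB-WT and 92.3 in Control, and over 6 of them 85.7, 89.1 and 65.6. Sums over a whole library mix nuclei of these types, and fewer nuclei of a type cannot be told apart from less signal per nucleus. The part of these shifts in the ratios of the repair genes was not tested.

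Promoter sequences show what lies under the peaks that were read. RefSeq windows of GRCm38.p6, the assembly of mm10, run from 250 bases before to 50 bases after the start, and 29 of the 36 genes had one. Rad50, Nbn, Xrcc2, Wrn, Prkdc, Fancd2 and Xpc were not listed. In all 3 libraries a called peak covered the first listed start of all 29 genes. Lig4 and Mgmt have 2 listed starts. The second start of Mgmt, 18635 bp from the nearest gene end, had no called peak within 1000 bp in any library. The nearest peak centre lay a median of 55 bp from the start in PDGFB-NLS, 62 bp in PDGFB-WT and 53 bp in Control, and at most 354 bp in PDGFB-NLS, 356 bp in PDGFB-WT and 339 bp in Control. The windows held a median of 21 CpG dinucleotides and 58.7% G and C, against 13 and 56.3% over 17492 protein-coding genes, and the median ratio of observed to expected CpG was 0.89 against 0.58.

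Short motifs were searched in these windows on both strands. The letters TTCCCGC, a core of sites for the E2F factors that time S-phase genes, were in 12 of 29 windows (41.4%) and in 5.99% of all 17492. A second E2F core, TTGGCGC, was in 3 windows (10.3%) against 3.17%. The ETS core CCGGAAG was in 8 (27.6%) against 11.9%, and the NRF1 core GCATGCG was in 6 (20.7%) against 4.49%. The SP-type GC box GGGCGG was in 19 (65.5%) against 46.3%, the NFY core CCAAT was in 15 (51.7%) against 39.0%, the CREB core TGACGT was in 6 (20.7%) against 8.76%, and the E-box CACGTG was in 3 (10.3%) against 7.90%. The 17492 windows were not matched to the 29 in CpG content or in having a called peak. The part of these traits in the differing shares was not tested. Each match describes letters, not a bound site.

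The promoters of 4 genes are shown because they hold the ends of the range described below. Atrx and Brca2 had the lowest and the highest ratio of PDGFB-NLS to Control among genes with a listed window, and Chek2 and Chek1 had the lowest and the highest ratio of PDGFB-WT to Control among those also past 1.3-fold in regions called in all 3 libraries. Capitals mark the motif letters named above. All 300 bases of each window lay inside called peaks in every library. The windows are chrX:105929323-105929622 on the minus strand for Atrx, chr5:150522371-150522670 on the plus strand for Brca2, chr5:110839733-110840032 on the plus strand for Chek2 and chr9:36726609-36726908 on the minus strand for Chek1, each written in the direction of the gene.
Atrx: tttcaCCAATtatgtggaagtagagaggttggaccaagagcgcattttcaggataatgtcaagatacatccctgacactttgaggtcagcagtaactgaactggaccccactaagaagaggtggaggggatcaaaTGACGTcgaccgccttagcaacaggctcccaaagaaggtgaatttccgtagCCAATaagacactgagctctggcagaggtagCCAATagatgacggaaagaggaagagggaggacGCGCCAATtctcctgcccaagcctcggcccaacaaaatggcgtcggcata
Brca2: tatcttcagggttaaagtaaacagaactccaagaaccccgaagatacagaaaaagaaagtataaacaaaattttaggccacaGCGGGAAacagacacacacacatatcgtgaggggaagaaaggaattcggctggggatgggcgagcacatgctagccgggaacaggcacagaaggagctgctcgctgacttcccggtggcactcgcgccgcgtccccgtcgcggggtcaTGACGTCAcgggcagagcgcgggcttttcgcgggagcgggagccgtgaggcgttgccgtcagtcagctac
Chek2: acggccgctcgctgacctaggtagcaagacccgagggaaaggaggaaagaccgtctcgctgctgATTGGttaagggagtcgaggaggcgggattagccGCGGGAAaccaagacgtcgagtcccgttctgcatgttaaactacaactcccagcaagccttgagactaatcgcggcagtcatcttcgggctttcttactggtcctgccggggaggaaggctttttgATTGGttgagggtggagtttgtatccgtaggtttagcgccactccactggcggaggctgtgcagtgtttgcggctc
Chek1: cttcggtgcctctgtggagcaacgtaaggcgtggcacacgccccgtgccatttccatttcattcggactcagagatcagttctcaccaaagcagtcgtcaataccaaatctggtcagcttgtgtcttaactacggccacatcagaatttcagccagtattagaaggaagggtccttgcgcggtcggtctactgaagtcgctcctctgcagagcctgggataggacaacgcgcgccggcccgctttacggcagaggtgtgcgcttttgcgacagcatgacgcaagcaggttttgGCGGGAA
Atrx carried 4 CCAAT cores, the one furthest from the start at 245 bases before it, and the last of them overlapped the second E2F core at the start itself. Brca2 carried the first E2F core 168 bases before its start and the CREB core on both strands of one palindrome 20 bases before it. Chek2 carried 2 CCAAT cores, at 186 and 26 bases before the start, and the first E2F core at 152 bases before it. Chek1 carried only the first E2F core among the letters searched, 44 bases into the gene at the end of the window.

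All 36 genes had a peak at a gene end in all 3 libraries, whereas 69.7% of all protein-coding genes did in PDGFB-NLS, 59.9% in PDGFB-WT and 67.7% in Control. Per kb of peak, the median level over the 36 genes was 48.7 CPM in PDGFB-NLS, 50.1 CPM in PDGFB-WT and 51.3 CPM in Control. Over all genes with a peak it was 32.0 CPM per kb in PDGFB-NLS, 38.3 in PDGFB-WT and 33.6 in Control. The lowest level was that of Xrcc6, at 11.3 CPM per kb in PDGFB-NLS, 7.11 in PDGFB-WT and 10.1 in Control. Mdc1, which holds repair factors at damaged chromatin, was among the highest at 151 CPM per kb in PDGFB-NLS, 154 in PDGFB-WT and 165 in Control. Atm, the kinase called by double-strand breaks, stood at 156 CPM per kb in PDGFB-NLS, 144 in PDGFB-WT and 153 in Control. For these genes the level differed far more between genes than between libraries.

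**Figure D1:**
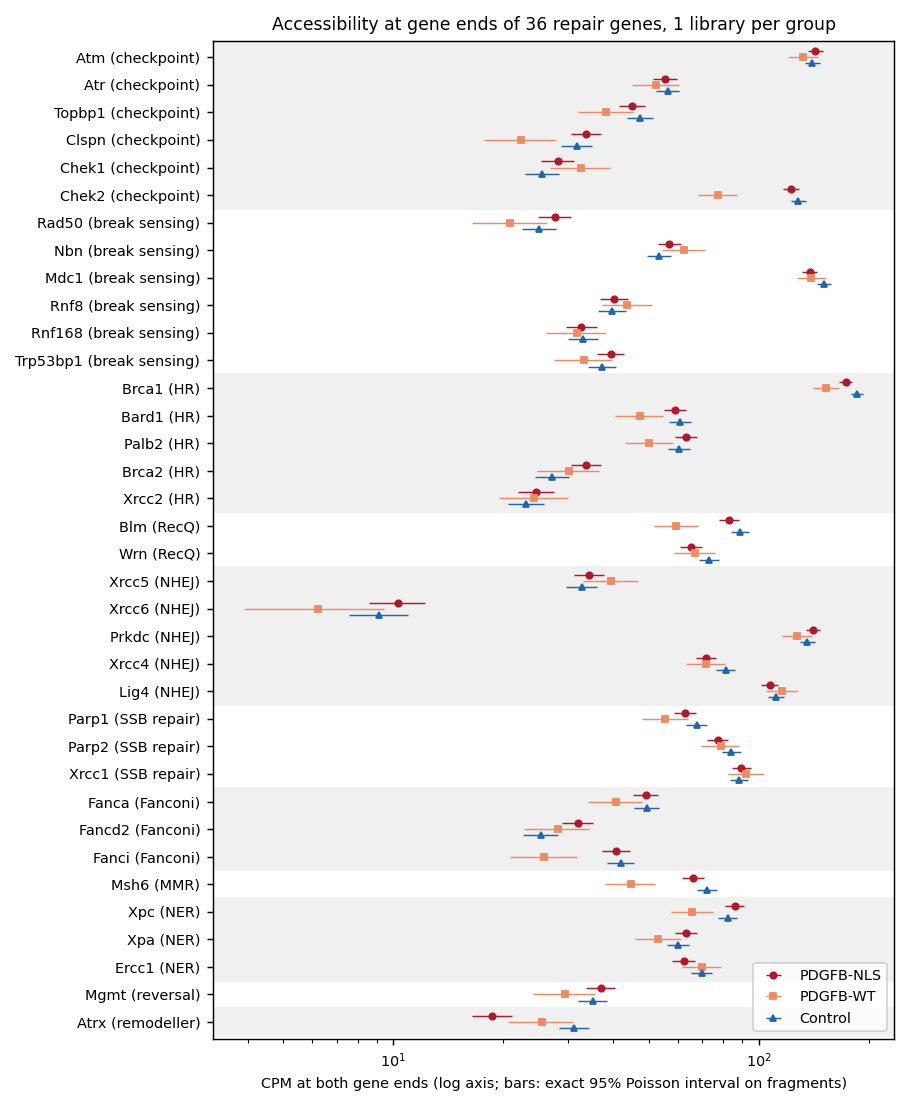
CPM at both ends of each of the 36 genes on a log axis, with PDGFB-NLS as circles, PDGFB-WT as squares and Control as triangles, and exact 95% Poisson intervals on fragments as bars. Genes are ordered by pathway. Most genes have overlapping or adjoining values in the 3 libraries, while Chek2, Msh6 and Fanci are low in PDGFB-WT and Atrx is low in PDGFB-NLS.

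The first comparison set PDGFB-NLS against Control. Ratios are log2 ratios of CPM relative to the median of all compared genes, which was -0.01 before centring over 13471 genes that reached 100 counts even in their lower library. All 36 repair genes were compared, their median was 0.01, and 19 lay above and 17 below the all-gene median. None was at least 1.3-fold above it, where 10.4% of all compared genes were, and 1 was at least 1.3-fold below it, where 4.87% were. The background holds many genes with few counts: with a minimum of 300 counts, 5.21% of 11399 genes were past the fold above and 3.17% below. Counting intervals lay wholly above 0 for 2 genes and wholly below for 5.

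Atrx, a chromatin remodeller of heterochromatin and telomeres, was the 1 gene past the fold. Its CPM was 18.6 in PDGFB-NLS, 25.5 in PDGFB-WT and 31.3 in Control. The ratio of PDGFB-NLS to Control was -0.73 (95% counting interval -0.96 to -0.50), or 1.66-fold lower. The libraries differed in which peaks were called there. The peak over the start held 18.6 CPM in PDGFB-NLS, 18.5 in PDGFB-WT and 22.7 in Control. A further peak centred 953 bp inside the gene held 8.57 CPM in Control, and 1 centred 747 bp inside held 6.97 CPM in PDGFB-WT. In PDGFB-NLS no peak was called there, so its count is unknown and not 0. In regions called in all 3 libraries the Atrx ratio was -0.27, short of the fold, and per kb of called peak its sign turned, to 0.29. At 1.5-fold the counts in this comparison were 0 repair genes above, against 5.8% of all genes, and Atrx alone below, against 1.91%.

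**Figure D2:**
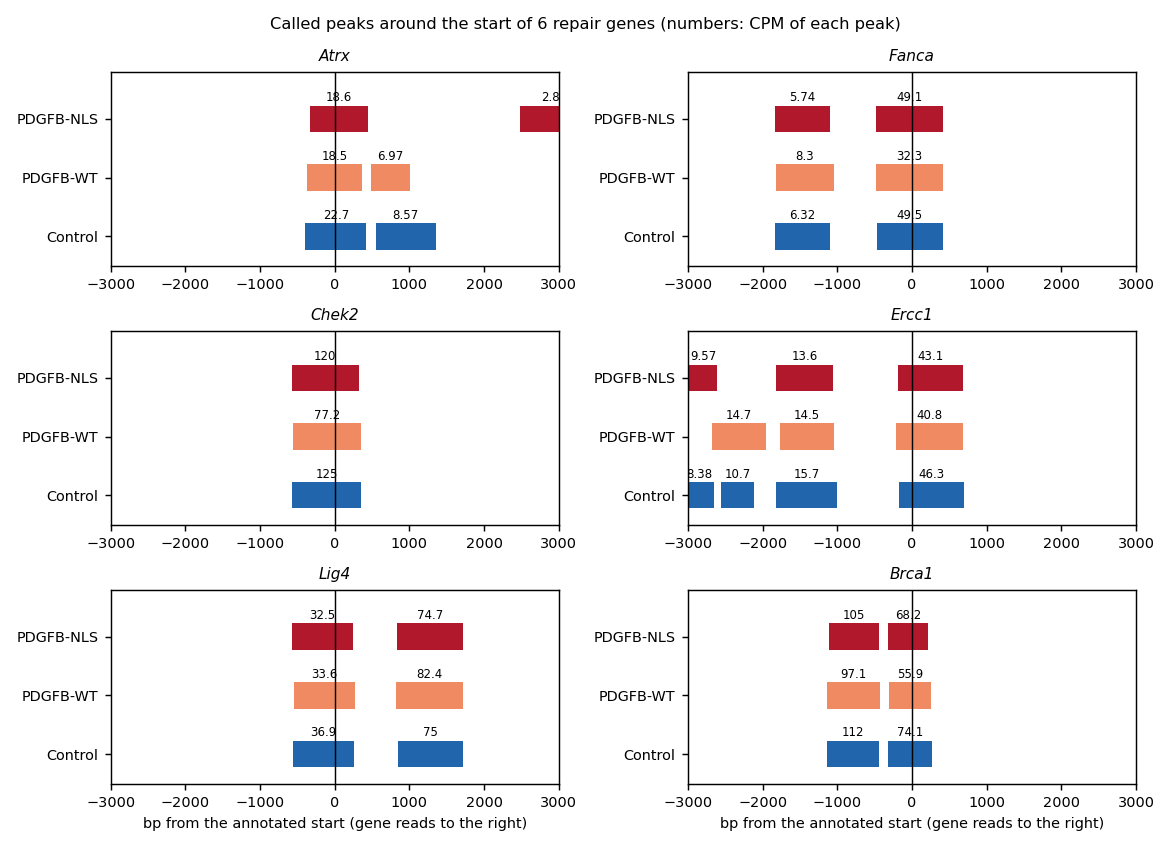
Called peaks in each library within 3000 bp of the annotated start of 6 repair genes, in bp from the start with the gene reading to the right, and the CPM of each peak printed above it. PDGFB-NLS is the top row of each panel, PDGFB-WT the middle and Control the bottom. At Atrx the peak just inside the gene is present in PDGFB-WT and Control, while at Chek2 the libraries share 1 peak, with 77.2 CPM in PDGFB-WT.

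At the upper end of the same comparison stood a pair of genes from the Fanconi and recombination routes. Fancd2, the protein that is ubiquitinated at stalled crosslinks, had 32.0 CPM in PDGFB-NLS, 28.2 CPM in PDGFB-WT and 25.4 CPM in Control. Its ratio of PDGFB-NLS to Control was 0.34 (0.12 to 0.55), and its peak also lies over the start of Emc3, so the counts cannot be assigned to 1 gene. Brca2, a mediator of strand exchange in recombination, had 33.7 CPM in PDGFB-NLS, 30.2 in PDGFB-WT and 27.2 in Control, a ratio of 0.32 (0.12 to 0.53) for PDGFB-NLS. Part of this came from the peak at the far end, next to N4bp2l1, with 5.50 CPM in PDGFB-NLS, 9.93 in PDGFB-WT and 2.56 in Control. At the start of Brca2 alone the CPM was 28.2 in PDGFB-NLS, 20.3 in PDGFB-WT and 24.7 in Control, and the ratio of PDGFB-NLS to Control was 0.21 (0.01 to 0.44).

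The remaining extremes of this comparison were small. Xrcc6, the smaller subunit of the Ku ring that binds broken ends, had 10.3 CPM in PDGFB-NLS, 6.22 CPM in PDGFB-WT and 9.15 CPM in Control at its gene ends. That peak lies at the end of Snu13, while the annotated start is 23716 bp from the nearest end in the gene table. Within 1000 bp of the annotated start Xrcc6 had 96.4 CPM in PDGFB-NLS, 88.0 in PDGFB-WT and 96.9 in Control, with ratios of 0.01 for PDGFB-NLS and 0.02 for PDGFB-WT. On the lower side, Xrcc4, a scaffold of the ligase of end joining, had 71.8 CPM in PDGFB-NLS, 71.7 in PDGFB-WT and 81.4 in Control, with -0.17 (-0.29 to -0.04) for PDGFB-NLS to Control. Ercc1, a subunit of the nuclease that cuts 5′ of bulky lesions, had 62.4 CPM in PDGFB-NLS, 69.9 in PDGFB-WT and 69.9 in Control, with -0.15 (-0.29 to -0.02). Wrn, a RecQ helicase with exonuclease activity, had 65.2 CPM in PDGFB-NLS, 66.8 in PDGFB-WT and 73.0 in Control, with -0.15 (-0.29 to -0.02). The peak of Xrcc4 also covers the start of Tmem167, and that of Wrn lies at an end of Purg. By pathway, the medians for PDGFB-NLS to Control were 0.01 for checkpoint kinases, 0.06 for break sensing, 0.08 for homologous recombination, 0.06 for end joining, -0.12 for the RecQ helicases, -0.10 for single-strand break repair, 0.00 for the Fanconi genes and 0.07 for nucleotide excision repair. Msh6 had -0.12 and Mgmt 0.08.

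PDGFB-WT was then set against Control. PDGFB-WT had fewer counts, and 35 repair genes could be compared, since Xrcc6 had 42 counts in PDGFB-WT. The all-gene median was -0.17 before centring over 10858 genes. The median of the repair genes relative to it was 0.00, with 18 above and 17 below. Of these, 3 genes (Chek1, Xrcc5 and Nbn) were at least 1.3-fold above, where 11.5% of all genes were. A further 4 genes (Chek2, Msh6, Fanci and Blm) were at least 1.3-fold below, where 8.68% were. These are 8.57% and 11.4% of the repair genes compared, both near these shares of all genes. That background holds many genes with few counts: with a minimum of 300 counts, 4.65% of 6004 genes were above and 3.71% below. Of the 4 genes below, Chek2, Msh6 and Blm reached that minimum in PDGFB-WT, with 521, 301 and 402 counts. Fanci, with 175, did not. Of the 3 genes above, Nbn reached it, with 422, and Chek1 and Xrcc5, with 220 and 266, did not. The nearness therefore holds for the lower minimum and was not shown at 300 counts. No gene was past 1.5-fold on either side, where 5.91% of all genes were above and 2.97% below. Without centring on the median, 0 repair genes were above the fold, where 6.68% of all genes were, and 5 were below it, where 20.9% were.

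The effector kinases of the checkpoint stood at opposite ends. Chek1, which acts downstream of ATR at stalled forks, lies on chromosome 9 from 36708482 to 36726658. It had 28.3 CPM in PDGFB-NLS, 32.6 CPM in PDGFB-WT and 25.5 CPM in Control, and the ratio of PDGFB-WT to Control was 0.52 (0.19 to 0.82), or 1.43-fold higher. Chek2, which acts downstream of ATM at double-strand breaks, lies on chromosome 5 from 110839800 to 110874140. It had 123 CPM in PDGFB-NLS, 77.2 CPM in PDGFB-WT and 129 CPM in Control, and the ratio of PDGFB-WT to Control was -0.57 (-0.78 to -0.40), or 1.48-fold lower. In regions called in all 3 libraries the ratios were 0.50 for Chek1 and -0.54 for Chek2. Per kb of called peak the sign of Chek2 turned, to 0.27. A small peak at the far end, with 2.69 CPM in PDGFB-NLS and 3.69 in Control, was not called in PDGFB-WT. With it the peak length was 1.81 kb in PDGFB-NLS, 0.92 kb in PDGFB-WT and 1.77 kb in Control. Within 1000 bp of the annotated start, where each library had 1 peak, the ratio of PDGFB-WT to Control was -0.53 (-0.74 to -0.36). Hscb has an end within 1000 bp of a Chek2 peak. Chek1 rests on 220 counts in PDGFB-WT and Chek2 on 521.

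Other members of the checkpoint and sensing groups lay between them. Clspn, the adaptor through which ATR reaches CHEK1, had 33.7 CPM in PDGFB-NLS, 22.4 CPM in PDGFB-WT and 31.8 CPM in Control, with -0.34 (-0.70 to 0.02) for PDGFB-WT to Control. Atm, Atr and Topbp1, the last an activator of ATR, had ratios of 0.09, 0.06 and -0.14. Of the 6 genes of break sensing, 5 lay above the all-gene median, but 1 of these, Trp53bp1, was at 0.00 and is taken up below. Nbn, a subunit of the MRE11 complex, had 57.0 CPM in PDGFB-NLS, 62.5 in PDGFB-WT and 53.5 in Control, with 0.39 (0.17 to 0.62) for PDGFB-WT to Control. In regions called in all 3 libraries it was 0.37, just short of the fold. Rnf8, a ubiquitin ligase recruited by MDC1, had a ratio of 0.31 (0.06 to 0.59), and its peak is shared with the transcript Gm28043. Rnf168, the ligase that extends the RNF8 mark on histones, had 0.11, Mdc1 had 0.05 and Rad50 had -0.09, all with intervals that include 0.

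Trp53bp1, which shields broken ends from resection, depended on the start that was read. At its outer gene ends it had 39.4 CPM in PDGFB-NLS, 33.2 in PDGFB-WT and 37.2 in Control, a ratio of 0.00 for PDGFB-WT that became -0.02 in regions called in all 3. At the annotated start, 24947 bp inside the gene table's end, it had 74.8 CPM in PDGFB-NLS, 51.3 in PDGFB-WT and 69.7 in Control. There the ratio of PDGFB-WT to Control was -0.28 (-0.52 to -0.04), and that of PDGFB-NLS to PDGFB-WT was 0.41 (0.17 to 0.64).

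In end joining, Xrcc5, the larger Ku subunit, had 34.3 CPM in PDGFB-NLS, 39.4 CPM in PDGFB-WT and 32.8 CPM in Control, with 0.43 (0.12 to 0.69) for PDGFB-WT to Control. Lig4, the ligase of the pathway, had a ratio of 0.22 (0.04 to 0.37) over a peak pair that also covers the start of Abhd13. Prkdc, the catalytic subunit of the DNA-dependent kinase, had 141 CPM in PDGFB-NLS, 128 in PDGFB-WT and 136 in Control and a ratio of 0.08 for PDGFB-WT to Control. Its value for PDGFB-NLS to PDGFB-WT was 0.00, and 0.05 in regions called in all 3 libraries, and Mcm4 has an end at the same peak. The other genes named for end joining lay mostly on the other side for PDGFB-WT to Control. Of 7 compared, 6 lay below the median (median -0.34). Past the fold below were 3 of the 7, where 8.68% of all genes were, and 2 in regions called in all 3 libraries.

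In homologous recombination no gene passed the fold in PDGFB-WT against Control, and the 5 ratios ran from -0.20 for Bard1 to 0.32 for Brca2. Bard1 is the partner that makes BRCA1 a ubiquitin ligase. At the start of Brca2 alone, away from the peak next to N4bp2l1, the ratio was -0.12 (-0.53 to 0.24), so its sign depended on that far peak. Brca1, a hub of recombination and checkpoint signalling, had 173 CPM in PDGFB-NLS, 153 in PDGFB-WT and 186 in Control over a pair of peaks shared with the start of Nbr1, and a ratio of -0.12 (-0.22 to 0.04). Palb2, the bridge between BRCA1 and BRCA2, had -0.10, and Xrcc2, which also acts in strand exchange, had 0.24, both with intervals that include 0.

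The mismatch gene Msh6 and the Fanconi gene Fanci held the lowest values after Chek2, while the Fanconi gene Fancd2 lay at 0.32 (-0.03 to 0.64). Msh6, which recognises mismatched bases, had 66.2 CPM in PDGFB-NLS, 44.6 CPM in PDGFB-WT and 72.4 CPM in Control, with -0.53 (-0.76 to -0.26) for PDGFB-WT to Control. Fanci, the partner of FANCD2 on damaged DNA, had 40.7 CPM in PDGFB-NLS, 25.9 in PDGFB-WT and 41.9 in Control, with -0.53 (-0.81 to -0.16) on 175 counts in PDGFB-WT. Both were also past the fold in regions called in all 3 libraries, at -0.55 for Msh6 and -0.54 for Fanci. Fanca, a core subunit of the Fanconi ubiquitin ligase, had -0.12 at its gene ends but -0.46 (-0.75 to -0.16) within 1000 bp of its start. A peak centred 1436 bp upstream in PDGFB-WT, in a region called in all 3 libraries, reached the gene-end window in PDGFB-WT alone. At the start peak Fanca had 49.1 CPM in PDGFB-NLS, 32.3 in PDGFB-WT and 49.5 in Control.

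Among the RecQ helicases, Blm, which resolves recombination intermediates, had 83.1 CPM in PDGFB-NLS, 59.6 CPM in PDGFB-WT and 88.9 CPM in Control. Its ratio of PDGFB-WT to Control was -0.41 (-0.65 to -0.21), and -0.32 in regions called in all 3 libraries, since a peak at the far end was called in PDGFB-NLS and Control but not in PDGFB-WT. Per kb of called peak the sign of Blm turned, to 0.46. Wrn had 0.04, and of the genes outside these groups Xrcc4 had -0.01 and Atrx -0.13. Of single-strand break repair, Xrcc1, the scaffold of the pathway, had 0.23 (0.03 to 0.40) with a peak shared with Pinlyp. Parp1 and Parp2, which make poly(ADP-ribose) at breaks, had -0.12 and 0.07. In nucleotide excision repair, Xpc, the lesion sensor, had -0.16, Xpa, the verifier of damage, had -0.01, and Ercc1 had 0.17. Mgmt, which removes alkyl groups from guanine, had 37.0 CPM in PDGFB-NLS, 29.5 in PDGFB-WT and 35.1 in Control, and -0.09 (-0.38 to 0.25).

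**Figure D3:**
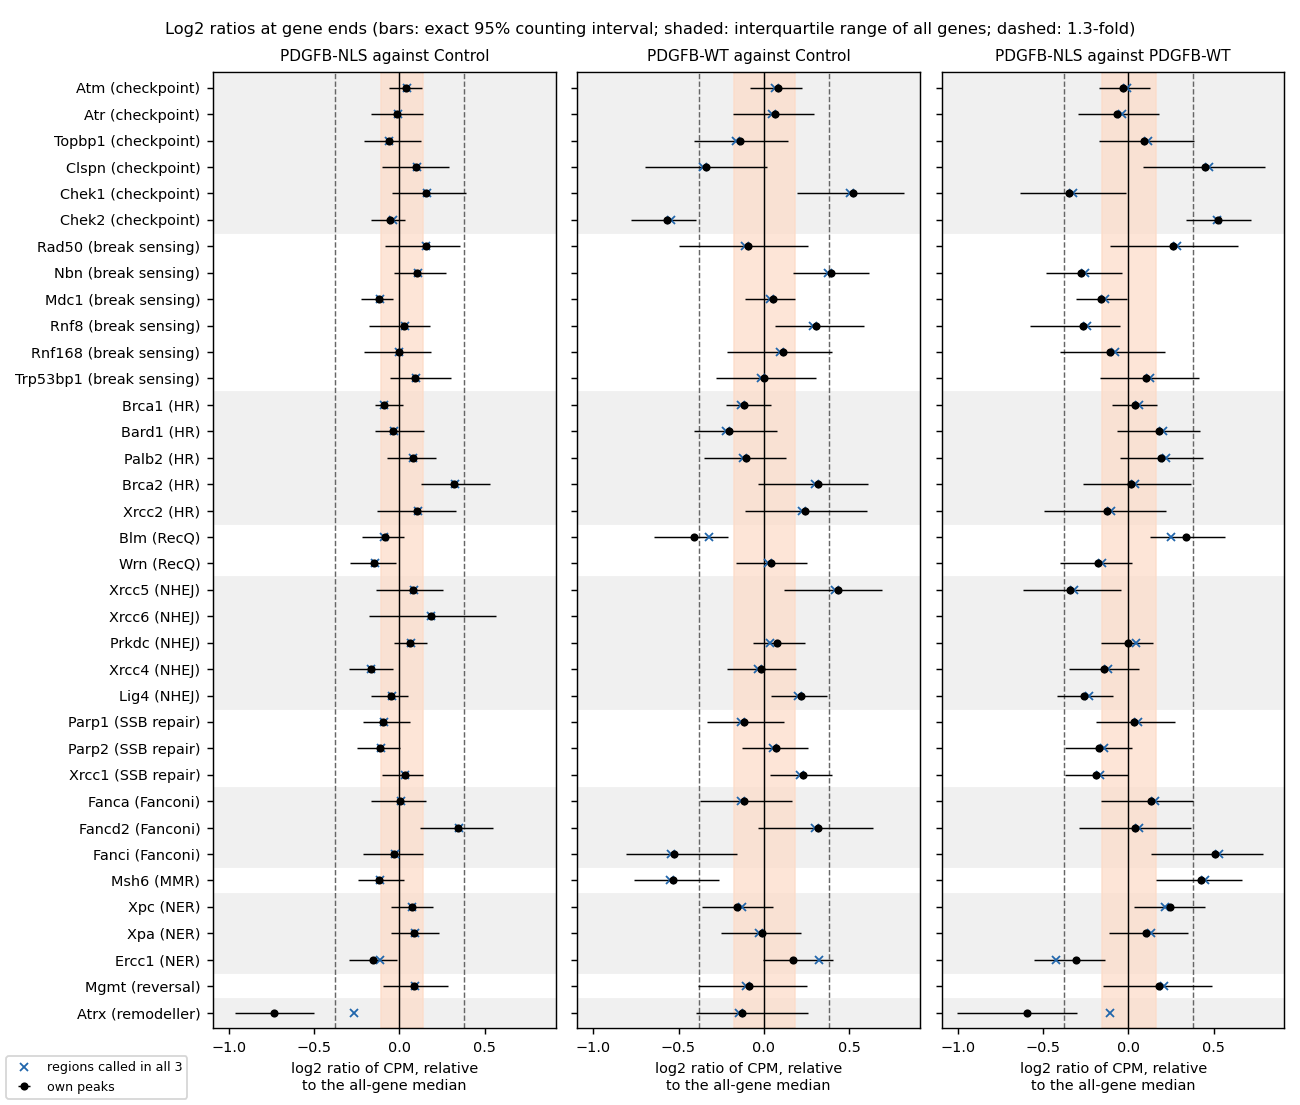
Log2 ratios of CPM at gene ends for the 36 genes in the 3 comparisons, relative to the all-gene median, with exact 95% counting intervals. Crosses are the same ratio in regions called in all 3 libraries, the shaded band is the interquartile range of all compared genes and dashed lines mark 1.3-fold. The left panel is tight around 0 apart from Atrx, whose cross lies at -0.27, and the other panels are wider.

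The third comparison set PDGFB-NLS against PDGFB-WT, and it shares a library with each of the others, so its values are not independent of them. The all-gene median was 0.14 before centring over 10864 genes. Of 35 repair genes compared, 18 lay above and 17 below, with a median of 0.01. The count at least 1.3-fold above was 4 genes, where 8.03% of all genes were, and 1 gene was at least 1.3-fold below, where 8.14% were. Chek2 had 0.52 (0.34 to 0.72), Fanci 0.51 (0.13 to 0.79), Clspn 0.45 (0.09 to 0.80) and Msh6 0.43 (0.16 to 0.67). Each was also past the fold in regions called in all 3 libraries, at 0.52 for Chek2, 0.53 for Fanci, 0.47 for Clspn and 0.45 for Msh6. Per kb of called peak, with its far-end peak in the length of PDGFB-NLS, Chek2 had -0.38. Within 1000 bp of its annotated start it had 0.51 (0.32 to 0.70). At 1.5-fold 0 genes were above, against 2.46% of all genes, and 1, Atrx, was below, against 3.09%. Without centring, 7 repair genes were past the fold above, where 17.4% of all genes were, and 1 was below it, where 4.15% were.

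On the lower side of PDGFB-NLS against PDGFB-WT, Atrx had -0.59, with a counting interval wholly below 0, and -0.11 in regions called in all 3 libraries, where it no longer passed. Per kb of called peak it had 0.16. Chek1 had -0.35 (-0.64 to -0.01) and Xrcc5 had -0.34 (-0.62 to -0.05), neither past the fold. Ercc1 had -0.31 (-0.55 to -0.14) and passed in regions called in all 3 libraries, at -0.42. Its annotated start lies 1004 bp inside the gene table's end, and at that start it had 43.1 CPM in PDGFB-NLS, 40.8 in PDGFB-WT and 46.3 in Control, with -0.05 (-0.31 to 0.24) for PDGFB-NLS to PDGFB-WT. The larger value at the gene ends came with a peak centred 2317 bp before the start, with 14.7 CPM, that entered the sum in PDGFB-WT only. Peaks over part of that stretch were also called in the other libraries but stayed outside the window. They held 9.57 CPM in PDGFB-NLS, and 10.7 and 8.38 CPM in Control. At the far end a peak held 5.66 CPM in PDGFB-NLS and 7.87 in Control and was not called in PDGFB-WT. Cd3eap has an end at a peak of Ercc1. By pathway, the 4 measured genes of end joining lay below the all-gene median, from -0.34 to 0.00, and the 3 Fanconi genes lay above it, from 0.04 to 0.51. The other genes named for these pathways were not on the same side throughout: of 7 further end joining genes compared, 6 lay above the median with 3 past the fold above (median 0.17), and of 10 further Fanconi genes 6 lay above (median 0.09).

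**Figure D4:**
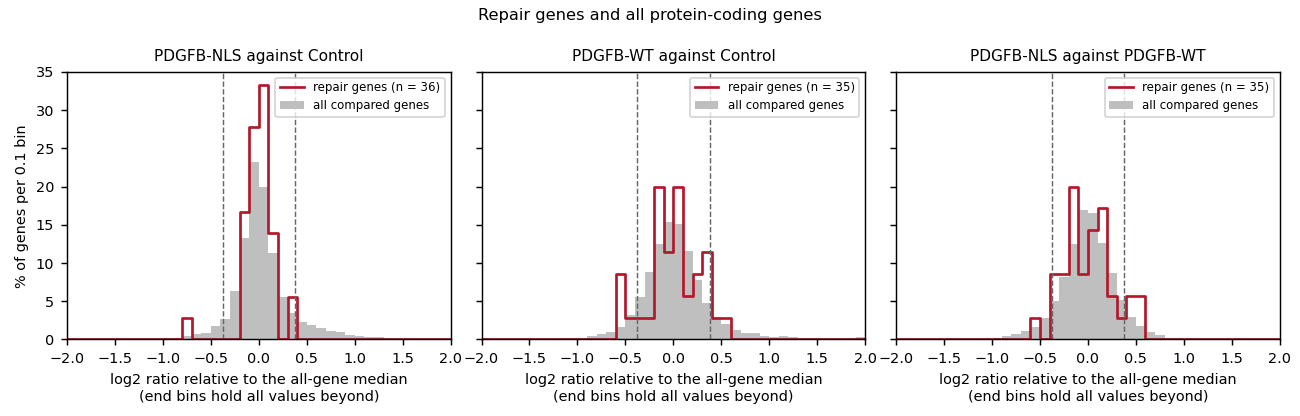
Share of genes per 0.1 bin of the log2 ratio relative to the all-gene median, with all compared protein-coding genes as grey bars and the repair genes as a red outline, for the 3 comparisons. Dashed lines mark 1.3-fold. The repair genes centre on the all-gene median in each panel, with medians of 0.01, 0.00 and 0.01.

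Inside the gene bodies, more than 1000 bp from either end, the 36 genes held 80 called peaks in PDGFB-NLS, 30 in PDGFB-WT and 48 in Control, of which 20 in each lay in regions called in all 3 libraries. At least 1 such peak was called in 28 of the genes (77.8%) in PDGFB-NLS, 15 (41.7%) in PDGFB-WT and 23 (63.9%) in Control. Of all 21887 genes it was called in 52.1% in PDGFB-NLS, 37.0% in PDGFB-WT and 49.5% in Control, and these shares move with the number of peaks called in a library, given above. With at least 100 counts in regions called in all 3, 11 genes could be compared for PDGFB-NLS to Control. Rad50 and Xrcc4 were at least 1.3-fold above, where 16.8% of all genes were, and Msh6 was at least 1.3-fold below, where 8.54% were. Rad50, the ATPase of the MRE11 complex, had body CPM of 8.63 in PDGFB-NLS, 8.74 in PDGFB-WT and 5.28 in Control, a ratio of 0.66 (0.20 to 1.10) for PDGFB-NLS. Xrcc4 had 18.5 body CPM in PDGFB-NLS, 26.8 in PDGFB-WT and 12.2 in Control in those regions, with 0.55 (0.23 to 0.83). Msh6 had 10.3 body CPM in PDGFB-NLS, 11.1 in PDGFB-WT and 14.2 in Control, with -0.51 (-0.82 to -0.16).

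For PDGFB-WT to Control, 5 bodies could be compared. Xrcc4 with 0.98 (0.59 to 1.36) and Chek2 with 0.51 (0.03 to 0.96) were past the fold above, where 29.0% of all genes were, and Trp53bp1 with -0.71 (-0.88 to -0.53) was past it below, where 19.8% were. The body of Trp53bp1 includes the peak over its annotated start, so this value shares counts with that of the start and is not independent of it. It rests on 607 counts in PDGFB-WT and 3402 in Control, against 346 in PDGFB-WT and 1796 in Control at the start, and body ratios are relative to the median of all bodies compared, which was 0.15 here. Of 6 bodies compared for PDGFB-NLS to PDGFB-WT, Trp53bp1 with 0.68 (0.50 to 0.85) was past the fold above, against 12.3% of all genes. Mgmt with -1.11 (-1.57 to -0.52), Prkdc with -0.48 (-0.80 to -0.10) and Xrcc4 with -0.44 (-0.81 to -0.09) were past it below, against 19.5%. The Mgmt body held 6.47 CPM in PDGFB-NLS, 15.0 in PDGFB-WT and 3.57 in Control in regions called in all 3, with too few counts in Control for a ratio. Its promoter, as given above, had the lowest CPM in PDGFB-WT, but the ratio to Control was -0.09 with an interval that included 0.

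Several more of the 36 genes share their peak with a neighbour. Npat starts at the peak of Atm, 1700065D16Rik at that of Atr, Dctn5 at that of Palb2, and Lsm3 and the transcript Gm52912 at that of Xpc. Rlbp1 has an end at a peak of Fanci, Tmem43 at 1 of Xpc, the transcript Gm31986 at 1 of Parp1 and the RNase P RNA gene Rpph1 at 1 of Parp2. For these genes the counts cannot be divided between the neighbours.

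The other genes of these pathways, 106 named by pathway, give the setting. For PDGFB-NLS to Control, 103 were compared with a median of -0.01. Past the fold were 2 above (1.94%) and 1 below (0.971%), against 10.4% and 4.87% of all genes. Mad2l2, a subunit of shieldin and of polymerase zeta, had 13.3 CPM in PDGFB-NLS and 9.23 in Control, a ratio of 0.54 (0.20 to 0.89). It had no value in regions called in all 3 libraries, and within 1000 bp of its annotated start the ratio was 0.12. Smug1, a uracil glycosylase, had 11.8 CPM in PDGFB-NLS and 8.38 in Control, a ratio of 0.51 that was -0.15 in regions called in all 3 libraries. Mpg, a glycosylase of alkylated bases, had 33.7 CPM in PDGFB-NLS and 50.2 in Control, with -0.56 (-0.75 to -0.39) and -0.59 in regions called in all 3. Mus81, a nuclease of recombination intermediates, followed with 108 CPM in PDGFB-NLS and 133 in Control, a ratio of -0.29.

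For PDGFB-WT to Control, 96 of the other genes were compared with a median of -0.05. Past the fold were 0 above, against 11.5% of all genes, and 10 below (10.4%), near the 8.68% of all genes. Their share with a minimum of 300 counts, where 3.71% of all genes were below, is not given here. Fen1, the flap nuclease, had 56.5 CPM in PDGFB-WT and 108 in Control, with -0.76 (-1.01 to -0.57). Its ratio was -0.16 in regions called in all 3 and -0.93 within 1000 bp of its annotated start, so it depended on the peaks read. Mpg had 31.3 CPM in PDGFB-WT and 50.2 in Control, with -0.51 (-0.82 to -0.22), but -0.34 and short of the fold in regions called in all 3. In those regions 7 of the 96 other genes were past the fold below, where 7.17% of all genes were. The highest was Brcc3, a deubiquitinase of the BRCA1-A complex, with 44.5 CPM in PDGFB-WT and 39.8 in Control (0.33). For PDGFB-NLS to PDGFB-WT, 96 were compared with a median of 0.06. Past the fold were 11 above (11.5%) and 1 below (1.04%), against 8.03% and 8.14% of all genes. Fen1 had 0.67 (0.50 to 0.94), and 0.17 in regions called in all 3, and Poll, a polymerase of end joining, had 36.1 CPM in PDGFB-NLS and 22.4 in PDGFB-WT (0.55). The lowest were Mus81, with 108 CPM in PDGFB-NLS against 132 in PDGFB-WT (-0.43), and Brcc3, with 38.0 CPM in PDGFB-NLS against 44.5 in PDGFB-WT (-0.37).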

How the data were processed

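Single-cell ATAC-seq of 3 mouse glioma libraries was analysed, 1 per group by sample title. The deposited matrices hold raw counts of transposase cuts per peak and barcode, from cellranger-atac 2.1.0 per the file headers. Cell Ranger 8 and the build mm10 are named by the submitters' processing notes. Peaks were called per library, and a region absent from a list has an unknown count. How peaks and cells were called is not given in the sources used here.

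No barcode under 200 counts was kept. No doublet caller was run and no doublets were removed, since values are sums over a whole library. Overlapping peaks were merged into 147229 regions, 47450 of them (32.2%) called in all 3 libraries, which held 78.8% of the counts in PDGFB-NLS, 96.3% in PDGFB-WT and 81.6% in Control. Counts of peaks within 1000 bp of a gene end (RefSeq table of GRCm38.p6) were scaled to CPM on these regions. A gene entered a comparison when its lower library reached 100 counts. Intervals are exact Poisson for CPM and Clopper-Pearson on the conditional binomial for ratios, at 95%, on fragments, each standing for a pair of cuts, rounded up per entry. They are relative to the all-gene median of fragments, so they need not centre on the ratio. A gene is called past a fold of 1.3, and an alternative of 1.5 was tried.

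Genes with every library's value printed were the 4 highest and 4 lowest ratios per comparison, those not measured, and those that changed side or lost the fold in regions called in all 3. Of the other repair genes the 2 highest and 2 lowest were named, apart from 1 that is not reported here. The genes and lists were chosen with earlier results of these data known. Of the 36, 16 share a peak with an end of another protein-coding gene, so their counts cannot be assigned to 1 gene. The code was tested on simulated data and run with Python 3.11.15, NumPy 2.4.6, pandas 2.3.3, SciPy 1.17.1 and matplotlib 3.10.9.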

Additional observations from a re-analysis of the deposited data

How the results depend on the processing

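Under 13 settings the median ratio of the repair genes stayed inside the counting interval of the gene or genes at the median, in all 3 comparisons. That interval belongs to single genes and is wide. It was -0.28 to 0.31 at Trp53bp1 for PDGFB-WT against Control and -0.27 to 0.37 at Brca2 for PDGFB-NLS against PDGFB-WT. Lying inside it therefore cannot show how stable the median is. The median ranged from -0.02 to 0.02 for PDGFB-NLS over Control, -0.17 to 0.04 for PDGFB-WT against Control, and, with PDGFB-NLS set against PDGFB-WT, -0.01 to 0.16. The counts of genes past 1.3-fold were less stable. For PDGFB-NLS against Control the count below, 1 gene, was 0 in regions called in all 3 libraries and 0 per kb of peak. In those regions 3.32% of 12488 genes were past the fold below. For PDGFB-WT against Control the count above, 3 genes, was 0 when ratios were not taken relative to the all-gene median, 1 with a minimum of 300 counts and 0 at 1.5-fold, and the count below, 4 genes, was 0 at 1.5-fold. With the minimum of 300 counts 4.65% of 6004 genes were past the fold above and 3.71% below. For PDGFB-NLS against PDGFB-WT the count above, 4 genes, was 7 without centring, 2 with a minimum of 300 counts and 0 at 1.5-fold. With that minimum 3.42% of 5998 genes were past the fold above in this comparison and 3.98% below. There the count below, 1 gene, was 2 at the end with the higher mean CPM, 0 with a minimum of 300 counts, 0 with barcodes of at least 1000 counts and 4 per kb of peak. Per kb of peak, where the library with fewer called peaks is divided by a shorter length, signs turned for Atrx (0.29 when PDGFB-NLS was set against Control, 0.16 against PDGFB-WT), Chek2 (0.27 for PDGFB-WT against Control, -0.38 with PDGFB-NLS over PDGFB-WT) and Blm (0.46 for PDGFB-WT against Control). Reading 1000 bp around the annotated start was added after seeing the data and covers 29 genes. It gave 0 genes above the fold and 1 below for PDGFB-NLS over Control, 2 and 4 for PDGFB-WT against Control, and 6 and 1 for PDGFB-NLS against PDGFB-WT. The share of all genes past the fold around annotated starts is not given here. These counts therefore cannot be set against the shares at gene ends. The same holds for the counts per kb of peak, at 1 end and with barcodes of at least 1000 counts. No paired analysis was possible because each group has 1 library, and for the same reason no replicate could be left out. Depth limits PDGFB-WT most.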
